A study of Salmo salar with 72 samples.

Results

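The 200 genes with the steadiest level over the distal intestine (DI) and the spleen of Atlantic salmon (Salmo salar), and over 6 diets, are described here. Levels are in CPM, the count of a gene divided by the total count of its library and multiplied by 1000000. Of the 69389 genes counted, 9335 had a mean level from 20 to 200 CPM over all 72 libraries, and the 200 with the lowest standard deviation (SD) of log2(CPM + 0.5) over the 72 libraries were taken. The selection used every library, so each level, spread, tissue difference and diet difference given below for these genes is a description of values that entered the choice, and counts of significant genes among them support nothing.

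Smolts in seawater were fed 1 of 6 diets for 42 days, and the DI and the spleen of 36 fish were sequenced as bulk tissue, 6 fish per diet, which gave 12 groups of 6 libraries. FM was the fishmeal control and SBM the soybean meal diet. The remaining diets held soybean meal and the yeast Cyberlindnera jadinii, inactivated (ICJ) or autolyzed (ACJ), or the yeast Wickerhamomyces anomalus, inactivated (IWA) or autolyzed (AWA). Each diet was given to 3 tanks and 2 fish per tank were sequenced, so the fish of a group shared tanks, and the FM fish served as the control of all 5 other diets. In bulk tissue, fewer cells of a type and less RNA per cell cannot be told apart.

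Genes of this kind are usually called housekeeping genes. They serve tasks that every cell performs, such as transcription, RNA splicing, protein turnover and the movement of membranes, and they are used as reference genes when the level of another gene is measured by quantitative PCR. In RNA-seq the level of a gene is a share of its library, so a gene can be steady only relative to the other transcripts of the same library. The roles named below are those known from mammals and yeast.

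Library totals ranged from 6976621 to 30857656 fragments in the DI and from 15062129 to 35187924 in the spleen, and no gene among the 200 had fewer than 99 fragments in any library. Markers of the cells of each tissue were high in the libraries labelled with it. The enterocyte genes cdh17, mep1a.2, mep1bb and cdx1b had mean levels of 1780, 439, 202 and 120 CPM in the DI and at most 2.05 in the spleen. The erythroid genes alas2 and gata1 had 2030 and 118 CPM in the spleen and 17.4 and 2.07 in the DI. The summed level of the pancreatic genes tryp, ctrb, cbpa1 and cbpa2 ranged from 0 to 11400 CPM in the spleen (median 169.5) and from 0 to 3150 in the DI (median 0.45). The DI library of ICJ replicate 4 stood apart, with the lowest DI levels of these enterocyte genes, 359 CPM of cdh17, 3.3 of mep1a.2, 0.206 of mep1bb and 1.72 of cdx1b, and the selection, the AWA|FM calls and the diet ranges of the DI are given with and without it. The DI libraries of FM replicates 3, 4 and 5 were counted in another folder than the rest, and the DI library of IWA replicate 5 was the smallest.

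The SD of the 200 genes ranged from 0.112 to 0.182 on the log2 scale, with a median of 0.168, and the median over all 9335 genes of the window was 0.53. The ratio of the highest to the lowest of the 72 libraries had a median of 1.79 and a range from 1.41 to 2.49. It stayed under 2 in 173 of the 200 genes and in 3.97% of the window. The last genes inside the limit were zgc:152816, LOC106568406 and LOC106574420, with SDs of 0.182, 0.1821 and 0.1821. The first genes outside were LOC106605372, naa40 and pitpnbl, with 0.1822, 0.1823 and 0.1824, so the limit fell within a continuous series. The mean level of the 200 genes had a median of 32.1 CPM against 37.3 in the window, and 159 of them were under 50 CPM.

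**Figure D1:**
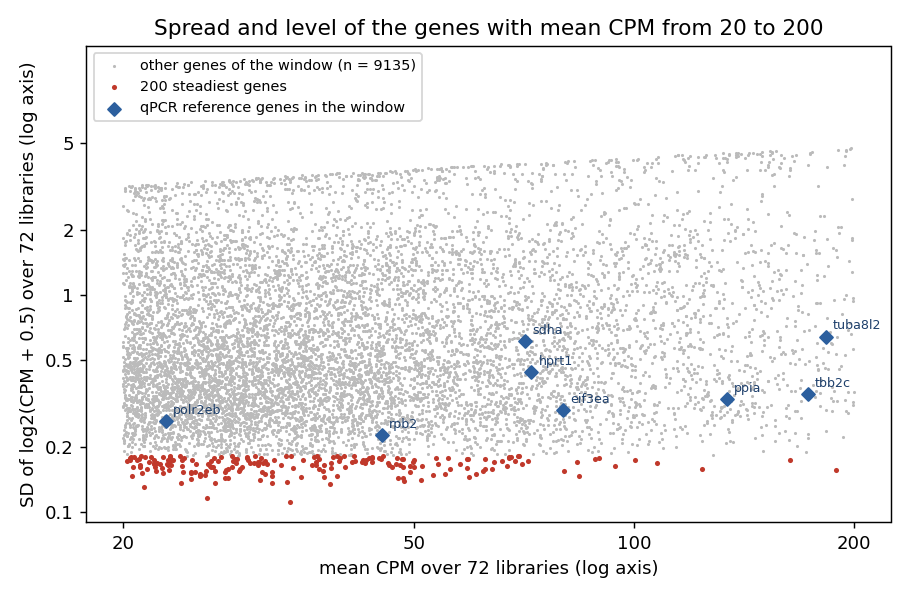
Mean CPM over 72 libraries (x, log axis) and SD of log2(CPM + 0.5) (y, log axis) of the 9335 genes with mean CPM from 20 to 200. Red points are the 200 genes taken, which form the lower edge from 0.112 to 0.182, and grey points are the other genes. Blue diamonds are genes often used as quantitative PCR references. None of them was taken, so all lie above that edge by the rule.

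A RefSeq symbol could be paired with 174 of the 200 genes, 172 of them protein coding, and 71 carried a symbol other than a LOC number. The shares were much the same in the window (87.0% and 86.1% paired). In 103 of the 200 the span overlapped another gene (51.5%, and 45.1% in the window), 21 of them on the same strand. Genes with 10 or more exon blocks made up 76.5% of the 200 and 67.7% of the window. The 200 genes lay on all 29 chromosomes, with 18 on chromosome 14 and 14 on chromosome 3. Only 5 pairs lay within 100 kb of each other, and the levels of these pairs correlated with r from 0.24 to 0.38 over the 72 libraries, which share tissue, fish and depth.

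The gene with the lowest SD was LOC106596382 (ENSSSAG00000009432, chromosome 1, 29254785 to 29266711, Ssal_v3.1). Its level was 27.5 CPM in the lowest, 34.5 in the median and 38.5 in the highest DI library, and 29.8, 33.3 and 38.7 in the spleen. The ranges of the tissues thus covered each other almost completely, and the mean was 34.1 ± 2.93 (SD, n = 36) in the DI and 33.6 ± 2.35 in the spleen. Next came lclat1 (chromosome 1, 32509655 to 32566950), an acyltransferase that remodels the lipids of membranes, cardiolipin among them. It had 21.6, 26.5 and 31.4 CPM as lowest, median and highest DI value and 21.4, 25.4 and 29.8 in the spleen. The mean of lclat1 was 26.4 ± 2.38 in the DI, against 25.8 ± 1.86 in the spleen.

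Places 3 to 8 went to LOC106604973, LOC106572078, ENSSSAG00000048442, ENSSSAG00000064329, LOC106599309 and LOC106569140, with SDs from 0.131 to 0.138. None of these has a role in the annotation used here, and their DI minus spleen differences in mean log2(CPM + 0.5) lay between -0.11 and 0.08. LOC100380722 was in place 10 with an SD of 0.14. Place 9 was held by tial1 (chromosome 18, 7320712 to 7357426), which binds U-rich RNA and takes part in splicing and in stress granules. The level of tial1 was 35.5, 50.1 and 61.5 CPM in the DI and 38.7, 47.2 and 54.7 in the spleen, again as lowest, median and highest library. Its lowest value was in the DI library of FM replicate 4, and the 2 tissues overlapped over most of their range.

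**Figure D2:**
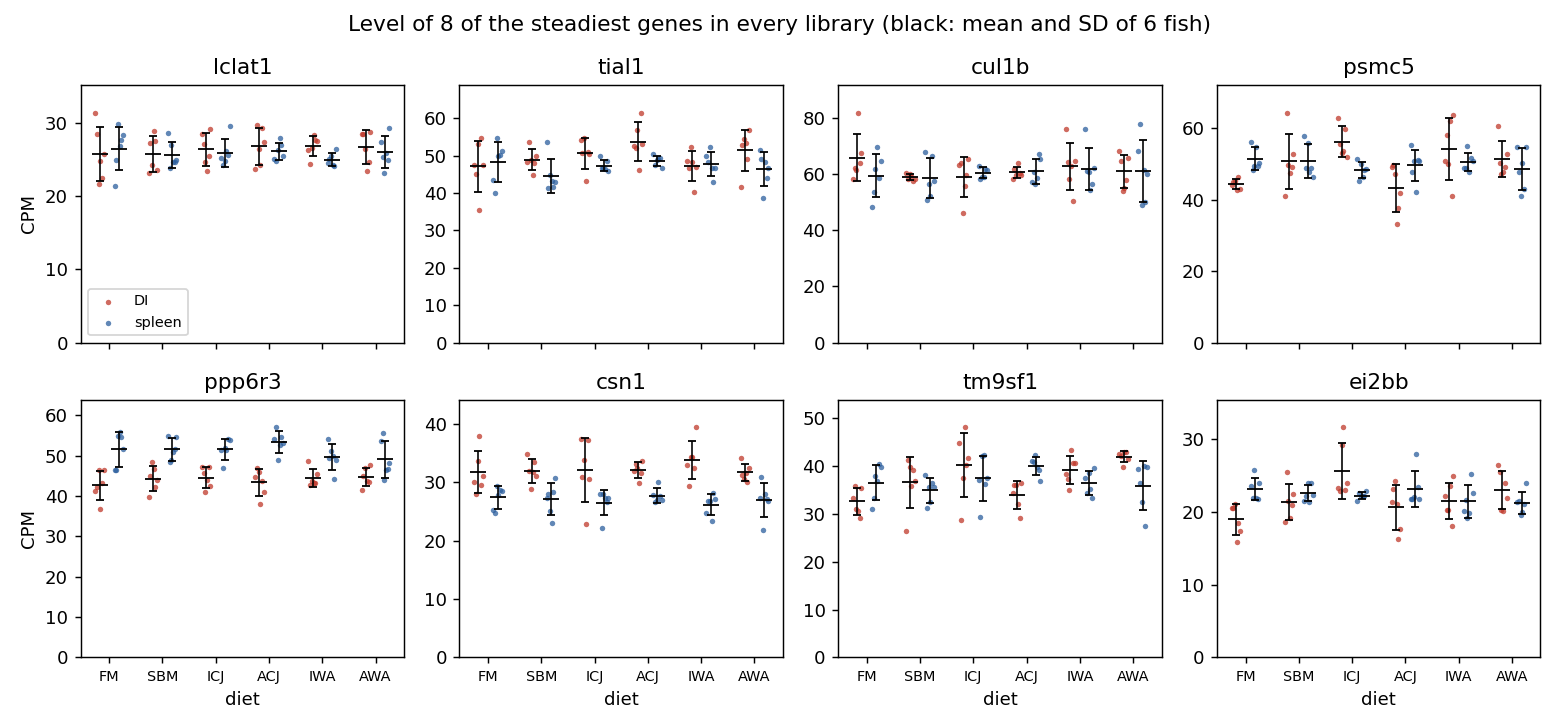
Level in CPM (y, from 0) of 8 of the 200 genes in every library, by diet (x), with the DI in red and the spleen in blue. Each point is 1 fish, and black marks are the mean and SD of 6 fish. The genes lclat1, tial1, cul1b and psmc5 have close medians in both tissues, and the range of psmc5 is wider in the DI. The gene ppp6r3 lies lower and csn1 higher in the DI than in the spleen. Both tm9sf1 and ei2bb have their lowest DI means in the FM diet.

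The annotated members were grouped by role with lists of symbols, each read against the 2913 genes of the window with such a symbol, of which 71 (2.44%) were among the 200. Genes with only a LOC number or an Ensembl identifier were not searched, so each count for a list or family covers genes found by symbol. Any gene of the window outside the 200 has a higher SD by the rule, so the SDs of relatives are given below as a description only. The list of RNA splicing, export and decay had 11 of its 65 genes among the 200, and that of the transcription machinery 4 of 23. Ubiquitin and related pathways had 7 of 64, vesicle traffic 9 of 96 and phosphatase subunits 4 of 24. Translation factors had 2 of 24, the proteasome 1 of 17, chromatin regulators 1 of 33 and solute carriers 1 of 44. The cytosolic ribosomal proteins (13 genes), the respiratory chain (28) and the immune receptors and cytokines (30) had none. The median SD was 0.631 for the respiratory chain and 1.19 for the immune list, against 0.266 for RNA handling and 0.297 for ubiquitin pathways.

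Genes that handle RNA formed the largest of these groups. Besides tial1 it held ik, a part of the spliceosome, upf3b of nonsense-mediated decay, ncbp3, which binds the cap of mRNA, the splicing factors srsf9 and srsf7a, the export factor chtopa, the double-stranded RNA binding gene stau1, the helicase ddx41, mex3c and fam50a. The level of ik was 47.1, 64.4 and 80.2 CPM in the DI and 49.7, 60.2 and 69.6 in the spleen. That of upf3b was 38.5, 45.4 and 57.9 in the DI and 40.7, 49.7 and 62.4 in the spleen. The DI range of ik extended further up and down than its spleen range, and upf3b lay a little lower in the DI. For ncbp3 the means were 45.9 ± 5.73 and 47.3 ± 4.58 CPM. Not every splicing factor was steady. Of 5 SR genes found by symbol in the window srsf9 and srsf7a were among the 200, and srsf3b, the least steady, had an SD of 0.365 with 45.4 ± 6.99 CPM in the DI and 69.9 ± 7.21 in the spleen.

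In the transcription machinery taf7, a subunit of the factor TFIID that opens initiation at the promoter, had an SD of 0.147, and gtf2h3 of TFIIH, cdc73 of the PAF complex and nfyc of the CCAAT-binding factor NF-Y had 0.166, 0.171 and 0.176. The level of taf7 was 28.8, 38.6 and 56.3 CPM in the DI and 35.2, 39.5 and 47.0 in the spleen. The spleen values lay inside the DI range, whose highest value was in ICJ replicate 4, the library with low enterocyte markers. Every other DI library was at or below 46.4 CPM. The other TFIID genes of the window, taf10 and taf11, had SDs of 0.248 and 0.37. The bromodomain gene brd7 was the 1 member on the list of chromatin regulators, with 22.1 ± 2.7 CPM in the DI and 24.0 ± 2.34 in the spleen.

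Protein synthesis was represented by ei2bb and eif2b5, subunits of eIF2B, the factor that reloads the initiation factor eIF2 with GTP. No other eIF2B gene was found by symbol in the window. The level of ei2bb was 15.8, 21.5 and 31.6 CPM in the DI and 19.2, 22.0 and 28.0 in the spleen. That of eif2b5 was 19.2, 30.1 and 37.5 in the DI and 25.8, 31.0 and 38.3 in the spleen. Both had close medians in the tissues and a wider range in the DI. LOC106569524 is an elongation factor 2-like gene by its name in the gene list of the study. The paper describes that list as genes that differed significantly between diets. LOC106569524 had 27.4, 32.7 and 39.1 CPM in the DI and 24.4, 31.8 and 41.7 in the spleen, and an SD of 0.147.

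Among the genes of protein turnover, cul1b is the scaffold of the SCF ubiquitin ligases and sugt1 a co-chaperone that binds them. Both had an SD of 0.15. The level of cul1b was 46.1, 60.4 and 81.9 CPM in the DI and 48.3, 60.3 and 77.7 in the spleen, so that the medians were nearly equal and the ranges covered each other. The other cullins found, cul4b and cul2, were in places 256 and 571 with SDs of 0.189 and 0.219. LOC106603254, an F-box and WD repeat gene, had an SD of 0.17. The group further held wsb2, rn167, the SUMO-activating gene sae1, ngly1, which removes N-glycans from misfolded proteins, and csn1 of the COP9 signalosome, which takes NEDD8 off cullins. The proteasome ATPase psmc5 had 33.2, 49.4 and 64.3 CPM in the DI and 41.0, 49.4 and 57.7 in the spleen. Its relatives psmc2 and psmc6 had SDs of 0.303 and 0.33.

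Membrane traffic contributed gors2, which stacks the Golgi, chm, the escort protein that presents Rab proteins for prenylation, vps36 of the ESCRT machinery, dctn6 of dynactin, the endoplasmic reticulum gene atl2, the Rab GTPases rab14 and rab10, and the transmembrane 9 genes tm9sf1 and tm9sf3. The SD of gors2 was 0.158, and those of chm, tm9sf3 and vps36 were 0.161 each. The level of tm9sf3 was 37.6, 51.3 and 71.7 CPM in the DI and 40.2, 48.6 and 57.3 in the spleen. Its medians were close, and the DI had the wider range. Relatives outside the 200 have higher SDs by the rule. The relative tm9s2 had an SD of 0.626, with 172 ± 27.9 CPM in the DI and 74.9 ± 6.91 in the spleen. Of 14 Rab genes in the window 2 were taken, and the highest SD among them was 1.13, in rab43.

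The phosphatase genes included ppp6r3 and ppp6r2a, regulatory subunits of protein phosphatase 6, smek2, a regulatory subunit of phosphatase 4, and ppp2cb, a catalytic subunit of phosphatase 2A. The 3 genes of phosphatases 4 and 6 found by symbol in the window were all among the 200, with SDs from 0.144 to 0.168. Of 6 such genes of phosphatase 2A 1 was, ppp2cb, with an SD of 0.167, and the highest SD of the others was 0.555, in ppp2r3c. The level of ppp2cb was 48.3, 68.5 and 83.5 CPM in the DI and 60.7, 73.5 and 84.8 in the spleen. The lowest spleen library lay well above the lowest DI library, and the highest values were close.

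Several annotated members outside the lists serve mitochondria, a group formed after the values were seen. They were mtx2 of the outer membrane import machinery, fkbp8, coq6 of ubiquinone synthesis, pisd, which makes phosphatidylethanolamine, bola1, rmdn3, and si:dkey-32e23.4, a synonym of dnm1l, the dynamin of mitochondrial fission. Their SDs ranged from 0.147 to 0.174. The mean of mtx2 was 52.5 ± 6.1 CPM in the DI and 53.8 ± 4.75 in the spleen. Even levels of this group were fixed by the selection, and other mitochondrial genes of the window were not gathered for comparison. On the respiratory chain list, which had no gene among the 200, 26 of the 28 genes had the higher mean in the DI. Also among the 200 were prkag1, a subunit of the energy sensor AMPK, the NAD-synthesizing gene nmnat1, spermine synthase (spsy), and nr1h3, the liver X receptor that responds to oxysterols. The level of nr1h3 was 42.5, 60.1 and 72.9 CPM in the DI and 40.6, 59.0 and 75.5 in the spleen, with medians close to each other.

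Genes commonly used as references in quantitative PCR were compared with these values. In the list of such genes, the symbols that could be matched were none of the 200. Any gene of the window outside the 200 has a higher SD by the rule, so these SDs are a description only. The median SD of the window was 0.53. The steadiest were rpb2, a subunit of RNA polymerase II, with an SD of 0.226, and polr2eb with 0.263, in places 659 and 1218 of the window. The initiation factor subunit eif3ea had 0.295, ppia 0.331, the tubulin tbb2c 0.351, hprt1 0.44, sdha 0.614 and tuba8l2 0.644. The cyclophilin ppia1 lay above the CPM window, with a mean of 884 ± 146 CPM in the DI and 667 ± 89.7 in the spleen and an SD of 0.301, which is 1.79 times the median of the 200 genes. The ribosomal genes rps20 and rpl13, also above the window, had 0.301 and 0.279. The gene tuba8l2 had 139, 258 and 357 CPM in the DI and 88.2, 110 and 137 in the spleen. Its lowest DI library was above its highest spleen library. Matched genes below the window could not be among the 200. They were ef1a, tbp, eef1a1a and a second sdha gene, with means of 17.3, 8.11, 0.128 and 2.75 CPM. The SDs of ef1a and tbp were 0.418 and 0.431. Copies of a reference gene with only a LOC number or an Ensembl identifier were not searched. The matched gene may thus not be the copy used as a reference. The symbols actb, gapdh, b2m and ywhaz were not matched and are not analysed here.

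Tissue, diet and fish were set side by side as shares of each gene's sum of squares on the log2 scale. In the 200 genes the tissue took a median share of 6.22%, the diets within a tissue 16.7% and the fish within a group 74.4%. In the window the medians were 61.8%, 6.51% and 30.9%. These shares are not adjusted for the number of means behind each source, which were 2 tissues, 12 groups and 72 libraries. A source with more means takes a larger share with no effect at all, so shares of different sources cannot be compared. The shares of a gene add up to the whole, and the choice of a low SD favoured genes with a small tissue share. A higher diet or fish share in the 200 is thus not a larger difference. The range of the DI diet means had a median of 0.226 in the 200 genes and 0.495 in the window. Of the variance, 12.3% at the median corresponded to counting error, with a range from 2.24% to 30.9%. The SD within the DI had a median of 0.177 and that within the spleen 0.133, and 161 of the 200 genes were more variable in the DI, as were 92.8% of the window.

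**Figure D3:**
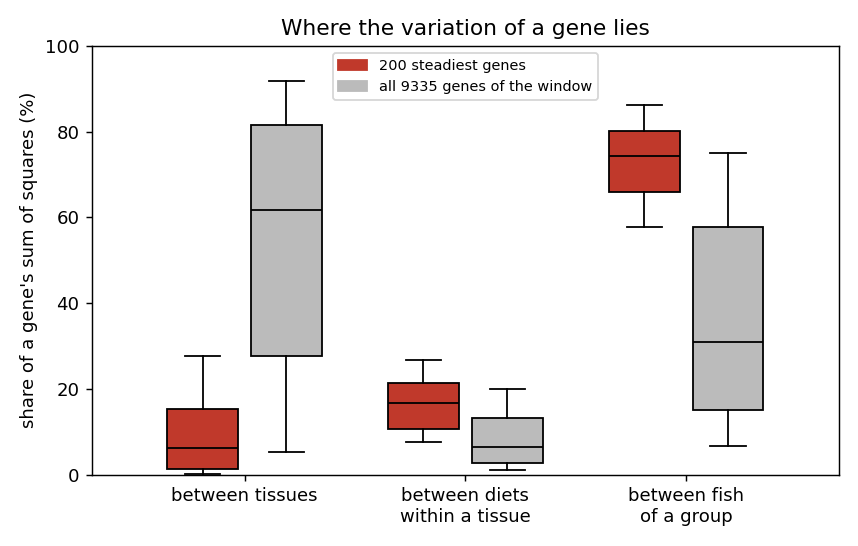
Share of a gene's sum of squares (y, percent) that lay between tissues, between diets within a tissue and between fish of a group, for the 200 genes in red and all 9335 genes of the window in grey. Boxes span the quartiles with the median as a line, and whiskers reach from the 10th to the 90th percentile. The tissue took a median of 6.22% in the 200 genes and 61.8% in the window.

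On the scale of the selection, the difference of mean log2(CPM + 0.5) between DI and spleen ranged from -0.231 to 0.252 over the 200 genes, with a median of -0.0143, and 90 of them had the higher mean in the DI. The members with the lowest DI values relative to the spleen were ngly1, cdc73, ppp6r3, mlf2 and LOC106576295. The level of ngly1 was 36.6, 44.3 and 49.9 CPM in the DI and 41.5, 52.5 and 61.9 in the spleen. That of ppp6r3 was 36.8, 43.9 and 48.7 in the DI and 44.0, 51.5 and 57.0 in the spleen. Both lay lower in the DI with some overlap, and the tissue took 56.1% of the sum of squares of ppp6r3, the largest share among the 200.

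At the other end were csn1, ENSSSAG00000094153, LOC106601351, LOC106609960 and LOC100194523. The level of csn1 was 22.8, 31.9 and 39.4 CPM in the DI and 21.9, 27.3 and 30.9 in the spleen, with means of 32.2 ± 3.05 and 27.0 ± 2.11. The DI median lay above the highest spleen library, and the lowest DI libraries lay within the spleen range. The other COP9 genes of the window had SDs from 0.203, in csn7a, to 0.343, in csn8.

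These signs depended on the scaling. TMM factors scale libraries on the assumption that most genes do not differ between them. With TMM factors computed over all genes, 179 of the 200 genes had the higher mean in the DI and the median difference was 0.138. With the RLE factors of DESeq2 all 200 had the higher mean there and the median was 0.269. TMM factors had medians of 0.955 in the DI and 1.064 in the spleen, and the 10 genes with most fragments took 4.44% to 13.7% of a DI library and 8.74% to 21.5% of a spleen library. In the edgeR quasi-likelihood fit of all 72 libraries, with TMM factors over the 35067 genes tested, 86.4% of all genes differed between the tissues at an adjusted p under 0.05. Of the 200 genes 180 did, all higher in the DI. With library totals in place of TMM 86.8% of all genes differed, and 100 of the 200 did, 46 higher and 54 lower in the DI. Over all genes tested, the log2 fold change had a median of -0.041 under TMM and -0.277 under library totals, and over the 200 genes 0.239 and -0.01. The members with the lowest DI values, ngly1, cdc73, ppp6r3, mlf2 and LOC106576295, had log2 fold changes from 0.01 to 0.04 under TMM and from -0.24 to -0.20 under totals. For csn1 the log2 fold change was 0.51 under TMM with an SE of 0.0405 and an adjusted p of 3.6e-18 in edgeR. None of the 200 genes had an absolute log2 fold change above 1, which the choice of genes with a low SD all but fixed.

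**Figure D4:**
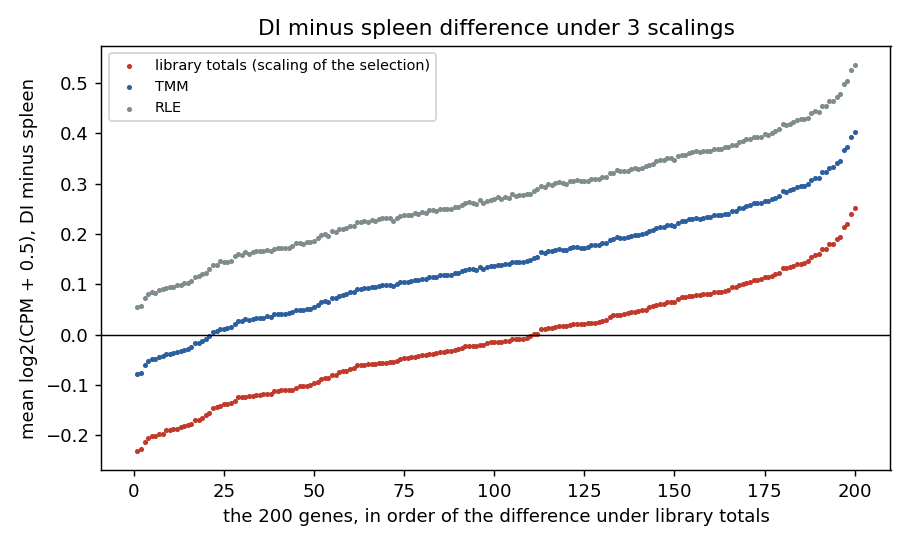
Difference of mean log2(CPM + 0.5), DI minus spleen (y), of the 200 genes in order of the difference under library totals (x). Under library totals (red) the values run from -0.231 to 0.252, with 90 genes above 0. Under TMM (blue) 179 genes lie above 0 and under RLE (grey) all 200.

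The deviation of a gene from its own mean over the 72 libraries was taken in every library, and the median over the 200 genes followed. It ranged from -0.176 to 0.156 in the DI and from -0.18 to 0.173 in the spleen, so the median of the genes moved between libraries by up to these amounts. In the DI the FM diet had the lowest median, -0.087 with a range from -0.175 to -0.031, and the medians of the other diets lay from -0.014 in SBM to 0.05 in ICJ. All 6 FM fish were below 0, and each of the other diets had fish on both sides. Over the genes of the window all 6 FM fish were below 0 as well, from -0.271 to -0.007. Single ACJ, IWA and SBM fish, at -0.176, -0.171 and -0.165, lay near the lowest FM fish. The DI library of IWA replicate 5, the smallest of all, was at -0.171, but at 0.027 over the genes of the window. It held the lowest value of 34 of the 200 genes and the highest of 15. The SD of its deviations over the 200 genes was 0.291, the highest of the DI. The DI library of FM replicate 4 held the lowest value of 28 and the highest of 3.

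In the spleen the 7 lowest libraries lay from -0.18 to -0.083, and their summed pancreatic markers ranged from 900 to 11400 CPM, with a median of 6100. In the other 29 spleen libraries the range was 0 to 2570 and the median 70. Over all genes of the window the median deviation in the 7 lowest libraries lay from -0.223 to -0.053. The 7 included the 5 libraries with the most pancreatic RNA, but also 1 at 900 CPM. From the lowest deviation up, their markers summed to 11400, 7010, 3270, 6100, 1650, 9060 and 900 CPM. AWA replicates 3 and 5, at -0.18 and -0.156, had 11400 and 7010 CPM of these markers. The part of these cells in the spleen values was not tested. Without the 6 libraries that passed 3000 CPM, 5 of the spleen and 1 of the DI, the selection kept 176 of the 200 genes.

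**Figure D5:**
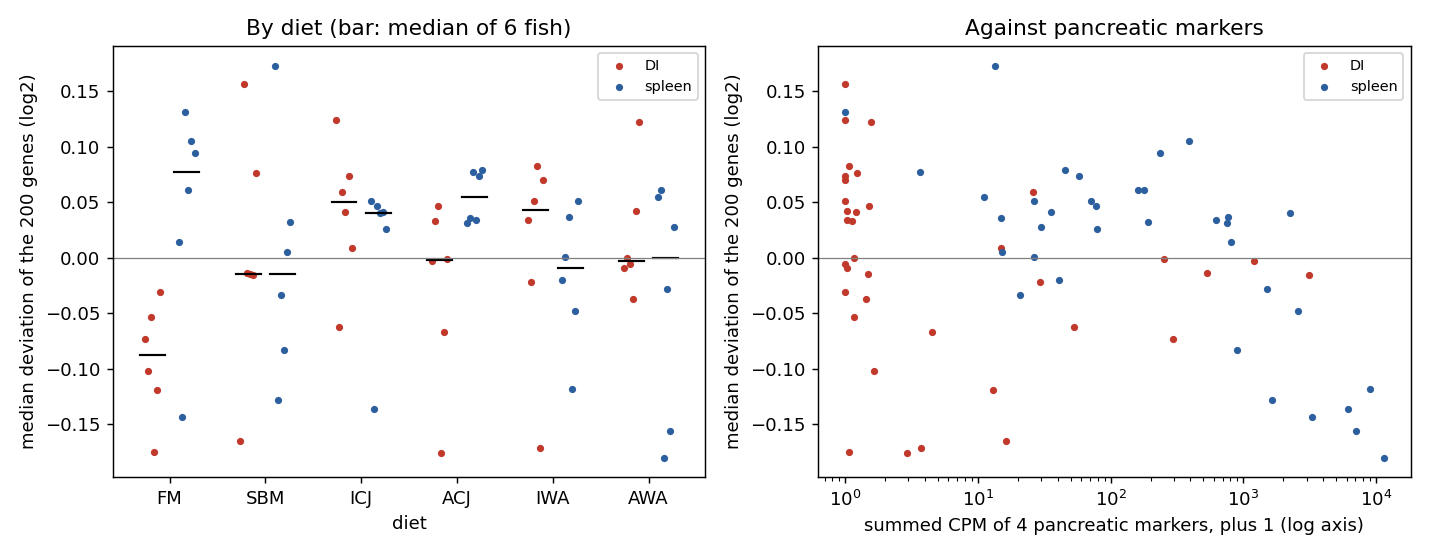
Median deviation of the 200 genes from their means (y, log2) in every library, by diet (left, bars are medians of 6 fish) and against the summed CPM of 4 pancreatic markers plus 1 (right, log axis), with the DI in red and the spleen in blue. The FM fish have the lowest DI median, -0.087, with single fish of other diets as low as -0.176, and the 5 spleen libraries above 3000 CPM of these markers all lie at or below -0.118.

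Which diet had the highest or lowest mean was counted over the 200 genes. In the DI the FM mean was the lowest of the 6 diets in 113 genes (56.5%, and 36.2% of the window) and the highest in 12 (6.0%, and 13.3% of the window). ICJ had the highest mean in 67 (33.5%, and 24.9% of the window), or in 72 without its replicate 4. In the spleen ACJ was highest in 89 (44.5%, and 39.5% of the window) and FM in 69 (34.5%, and 22.9% of the window). AWA was lowest in 81 (40.5%, and 32.5% of the window). The summed pancreatic markers of the spleen had a median of 849 CPM in AWA, 310 in FM and 50.9 in ACJ, and their part in this order was not tested. The range of the 6 diet means had a median of 0.226 on the log2 scale in the DI, and that in the spleen was 0.142.

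The widest range among DI diets was in ei2bb, 0.42 on the log2 scale. Its level was 15.8, 19.5 and 21.0 CPM in FM and 22.8, 23.5 and 31.6 in ICJ, as lowest, median and highest of 6 fish. These diets did not overlap for this gene. The highest ICJ value was in replicate 4, the library with low enterocyte markers, and without it the range was 0.36, in place 14, while LOC106583704 and ENSSSAG00000073642 then had the widest ranges at 0.41 each. ENSSSAG00000073642 followed with 0.41, from 123 ± 16.9 CPM in FM to 93.5 ± 17.2 in IWA (n = 6 each), and LOC106583704 with 0.40, from 38.0 ± 6.41 in FM to 50.1 ± 7.98 in ICJ. In both the fish of the 2 diets overlapped. Each of these ranges also leaned on a single low library. For ENSSSAG00000073642 it was IWA replicate 5, the smallest library, with 64.1 CPM against 88.5 to 113 in the other IWA fish. For LOC106583704 it was FM replicate 4, counted in another folder, with 26.3 CPM. Both values were the lowest of the gene in any library. The ranges without these libraries were not tested, so the order of the widest ranges holds only for the libraries used. In the spleen the widest ranges were 0.31 in LOC106608086, with 23.0 ± 2.91 CPM in FM and 18.4 ± 1.89 in AWA, 0.25 in LOC106603324, highest in ACJ and lowest in IWA, and 0.25 in LOC106600752, with the same order at its ends.

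Each diet was compared with FM in one edgeR quasi-likelihood fit per tissue, over all genes, with adjusted p under 0.05 as the threshold. In the DI the share of all 32157 genes tested that passed was 0.0187% in SBM|FM, 0.0466% in ICJ|FM, 0.00311% in ACJ|FM, 0.308% in IWA|FM and 3.41% in AWA|FM. Among the 200 genes 3 passed for AWA, all higher, and none for the other diets. At an unadjusted p under 0.05 there were 13 in SBM|FM, 15 in ICJ|FM, 2 in ACJ|FM, 20 in IWA|FM and 44 in AWA|FM, where 8.84%, 13.0%, 4.52%, 18.7% and 24.2% of all genes tested passed. DESeq2 called 2 of the 200 for IWA and 5 for AWA, with 3.04% and 7.53% of the genes to which it gave an adjusted p. These were 33852 and 34854 genes, so the base differs between comparisons and from that of edgeR. DESeq2 called none for SBM, ICJ and ACJ, with 0.455%, 0.915% and 0.143% of the genes with an adjusted p. The median log2 fold change of the 200 genes lay from 0.061 for IWA to 0.127 for AWA, and that of all genes tested from -0.08 for AWA to 0.004 for ICJ. These medians moved with the libraries used, from 0.163 for IWA to 0.21 for AWA without FM replicates 3, 4 and 5, and without IWA replicate 5 to 0.102 for IWA and 0.043 for ACJ, the lowest. With RLE factors IWA was at 0.02. The standard error of a member's log2 fold change had a median of 0.126 in AWA|FM.

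The 3 genes higher in fish fed the AWA diet were tm9sf1, chm and LOC106600062. The last is a tousled-like kinase by its name in the study's list of genes that differed significantly between diets. The level of tm9sf1 (chromosome 29, 19914444 to 19921255) was 33.4, 35.9, 31.1, 30.6, 29.1 and 35.5 CPM in FM replicates 1 to 6 and 42.6, 42.2, 39.8, 42.9, 42.9 and 41.4 in AWA. Every AWA fish was above every FM fish, and the log2 fold change was 0.40 with an SE of 0.0987 (edgeR, adjusted p = 0.025). The level of chm (chromosome 4, 38030999 to 38065100) was 32.5, 38.2, 28.5, 33.7, 25.2 and 36.6 CPM in FM and 43.2, 37.7, 39.0, 41.1, 41.1 and 38.1 in AWA. Here the groups met at their ends, with 1 FM fish above the 2 lowest AWA fish, and the log2 fold change was 0.36 (edgeR, adjusted p = 0.039). For LOC106600062 the lowest, median and highest values were 19.5, 25.6 and 27.5 CPM in FM and 25.4, 30.8 and 33.1 in AWA. The AWA fish of replicate 2 lay within the FM range, and the log2 fold change was 0.39 (edgeR, adjusted p = 0.039).

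The calls of chm and LOC106600062 were also lost with library totals, the scale of the levels given here (edgeR, adjusted p = 0.068 and 0.051), with RLE factors, with no filter on low counts and without the pancreas-rich libraries, and that of chm with the replicate block (0.064). Over all alternatives the adjusted p ranged from 0.013 to 0.12 for chm, from 0.015 to 0.14 for LOC106600062 and from 0.0048 to 0.086 for tm9sf1, which was lost with no filter. None of the calls was kept without the FM libraries that had been counted in another folder. Without FM replicates 3, 4 and 5, none of the 200 genes and 6 of all 33632 genes tested (0.0178%) passed in AWA|FM, with 3 FM fish left. The log2 fold changes were then 0.40 in tm9sf1, 0.30 in chm and 0.32 in LOC106600062. Without the DI library of ICJ replicate 4, whose enterocyte markers were low, 6 of the 200 genes and 6.42% of all genes passed.

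In the spleen 0% of the 32144 genes tested passed in SBM|FM, 0% in ICJ|FM, 0% in ACJ|FM, 0% in IWA|FM and 0% in AWA|FM, and none of the 200 did by edgeR. At an unadjusted p under 0.05 there were 23 of the 200 in SBM|FM, 20 in ICJ|FM, 17 in ACJ|FM, 11 in IWA|FM and 13 in AWA|FM. Of all genes 7.95%, 6.51%, 8.13%, 5.95% and 9.2% passed there. DESeq2 called none of the 200 in the spleen. Of the genes to which it gave an adjusted p it called 0.0487%, 0.017%, 0.00944%, 0.00755% and 0.0812% in the same order. The log2 fold changes of the 200 genes in the spleen ranged from -0.29 to 0.17 over the 5 comparisons, with a median SE of 0.0706 in AWA|FM, and their medians lay from -0.06 for IWA to -0.028 for AWA. With library totals the medians lay from -0.073 for AWA to 0.014 for ACJ, so the sign for ACJ turned with the scaling.

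How far the choice of the 200 genes depends on the rule was counted by choosing 200 genes again under 9 other settings. TMM factors over all genes kept 64 of the 200 and RLE factors 28, and all 28 were also kept by TMM. The mean of the SDs within each tissue kept 88, the median absolute deviation 117 and a window from 10 to 100 CPM 133. A pseudocount of 2 kept 193, the removal of counting variance 192, and leaving out the DI library of ICJ replicate 4 or the 3 FM libraries of the other folder 187 and 180. Only 5 genes were kept by all 9 settings, namely LOC106599309, clptm1l, LOC106569493, LOC106583426 and chm, and zgc:152816 was kept by none. The level of clptm1l was 27.6, 33.1 and 43.2 CPM in the DI and 29.6, 36.8 and 43.5 in the spleen. For LOC106599309 the values were 23.8, 30.5 and 35.5 in the DI and 27.6, 33.1 and 38.2 in the spleen, so both lay slightly lower in the DI on the scale of library totals.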

How the data were processed

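Per the labels and the methods of the study, mRNA libraries were made with a stranded kit, reads were trimmed with Trim Galore and aligned with STAR and RSEM to the Ssal_v3.1 genome, and fragments were counted per gene with featureCounts. The authors deposited raw counts for each of 69389 genes, without normalization. The labels name featureCounts 1.4.6 and the file headers another version, with reverse-stranded pairs counted. Library totals ranged from 6976621 to 35187924, and no 2 libraries were identical.

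CPM was computed from the counts and library totals. The members and the lists of genes were chosen with earlier results of these data known. The lists were rewritten as symbol patterns once the symbols could be seen, since no product names were at hand. Symbols were given to 34983 genes whose span covered at least 50% of a RefSeq gene and the reverse (Ssal_v3.1). Named genes were the 10 members with the lowest SD, the 3 on each side of the limit, the 5 with the largest tissue difference in each direction, those called in a diet comparison, the 3 with the widest diet range per tissue, up to 4 per list by SD, and the reference gene with the highest mean. Other genes named, such as the remaining members of a list, their relatives, the mitochondrial group and the markers, were chosen after their values were seen. A planned look at members with the same product name was not made.

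Diets were compared with FM within each tissue, and DI with spleen over all 72 libraries, by edgeR 4.0.16 in R 4.3.3 (quasi-likelihood F-test, robust, TMM, filterByExpr) with Benjamini-Hochberg adjustment over all genes tested. DESeq2 1.42.0, RLE factors, library totals, no filter, a replicate block and left-out libraries were alternatives. Tanks are not labelled, so p-values treat fish as independent. DI and spleen libraries with the same number came from the same fish. Their deviations from group means correlated with a median r of 0.231 (0.0263 to 0.456), above 0.1 in 29 of 36 fish. The fits were tested on simulated data.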

Additional observations from a re-analysis of the deposited data

Results flagged for a closer look

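In 5 of 120 groups of 6 fish 1 sample lay far from the others (its gap to the next passed the critical value of Dixon's test), where chance gives about 1 in 20. The median deviation of the 200 genes was -0.136 in the spleen of ICJ replicate 2 and 0.026 to 0.051 in the other fish of that group. This library had 6100 CPM of pancreatic markers and a median deviation of -0.148 over the genes of the window. In the same library LOC106603324 had 30.9 CPM against 38.8 to 42.7 in the others. The level of tm9sf1 was 26.5 CPM in the DI of SBM replicate 1 and 35.9 to 41.3 in the other fish. In the spleen ei2bb had 28.0 CPM in ACJ replicate 4 against 21.7 to 23.4, and LOC106608086 had 28.5 in FM replicate 1 against 20.6 to 23.2.

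For ei2bb the ICJ mean minus the FM mean was 0.42 on the log2 scale in the DI, against -0.05 in the spleen, a difference of 0.47. Every ICJ fish lay on one side of the FM mean in the DI and on the other in the spleen. For LOC106583704 the AWA mean minus the FM mean was 0.22 in the DI, against -0.16 in the spleen, a difference of 0.38, again with every fish in that direction. Such opposite directions occurred in 34 of 1005 cases, and these differences were not tested. The FM mean of LOC106583704 in the DI included replicate 4, counted in another folder, with 26.3 CPM, the lowest DI value of this gene. The lowest AWA fish there, replicate 2 at 38.4, lay below FM replicates 1, 3 and 5, at 43.2, 41.0 and 43.4, and above the other FM fish. Whether every AWA fish keeps its direction without FM replicate 4 was not tested.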

How the results depend on the processing

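The selection kept 64 of the 200 genes with TMM, 28 with RLE, 117 with the median absolute deviation, 88 with the mean of the SDs within tissues and 133 with a window of 10 to 100 CPM. Genes with the higher mean in the DI numbered 90 with library totals, 179 with TMM and 200 with RLE. Of 200 genes, 180 were called between tissues, with 86.4% of all genes, and 100 with library totals, with 86.8% of all genes. With an absolute log2 fold change above 1 it was 0, which the choice of genes with a low SD all but fixed. In AWA|FM in the DI 3 were called, and 5 by DESeq2. It was 1 with RLE factors, 0 with no filter on low counts and 6 without the DI library of ICJ replicate 4. Of the genes with an adjusted p in each fit, 3.41%, 7.53%, 3.06%, 0.847% and 6.42% were called. Left-out libraries chosen after seeing the data gave 0 without FM replicates 3, 4 and 5, with 0.0178% of all genes. Without the 6 libraries rich in pancreatic markers 1 was called, tm9sf1, with 2.72% of all genes. In IWA|FM DESeq2 called 2, with 3.04% of the genes with an adjusted p. The cause was not tested.

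The DI minus spleen log2 fold changes of ngly1, cdc73, ppp6r3, mlf2 and LOC106576295 turned to -0.24, -0.23, -0.22, -0.21 and -0.20 with library totals, and to -0.077, -0.073, -0.055, -0.054 and -0.045 with no filter. Those of ngly1, cdc73 and ppp6r3 turned to -0.02, -0.015 and -0.0023 without FM replicates 3, 4 and 5. With the fish as a replicate block 181 of the selected genes were called between tissues, with 87.2% of all genes. No count moved by over 1.5 times with a replicate block. Replicate numbers do not pair fish across diets (median r 0.00252, above 0.1 in 0 of 12 checks). With these numbers as a replicate block 2 of the selected genes were called in AWA|FM in the DI, with 1.76% of all genes. Of 98 alternatives for counts 82 stayed within 1.5 times and 16 moved. A count of 0 that stayed 0 was taken as unchanged. This was so in every spleen comparison and in SBM|FM, ICJ|FM and ACJ|FM of the DI, so the 82 say little about counts above 0.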
